A study of Caenorhabditis elegans with 6 samples.

Results

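The clec genes of Caenorhabditis elegans encode proteins with C-type lectin-like domains. They were taken as all single gene symbols of the form clec-number on the array. Each gene was represented by the probe set with the highest mean over all 6 arrays. This gave 220 clec genes of 17118 genes measured with a single name. Of the 239 clec genes listed as protein-coding in the RefSeq gene table, 202 were measured, and the other 18 of the 220 are not listed there as protein-coding. A further 22 probe sets that name a clec gene together with another gene were left out.

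C-type lectin-like domains are secreted or membrane-bound folds, some of which bind carbohydrates. In C. elegans the family is very large, and its proteins often carry a CUB or von Willebrand factor A domain beside the lectin fold. Many clec genes are known from the intestine, where infection raises the transcripts of some members, and they are used as readouts of innate immunity. No function in the PVD or OLL neurons is assumed here.

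The PVD and OLL group was RNA enriched for poly(A) transcripts of these sensory neurons in L3/L4 larvae. It came from animals in which the ser-2prom3B promoter fragment drove FLAG-tagged PAB-1, a poly(A) binding protein, in PVD and OLL. Whole-animal total RNA from L3/L4 larvae was the reference. Its genotype is not stated in the labels, and neither is how many animals went into a sample. Animals of both groups were grown at 25 °C on the E. coli strain Na22, and both RNAs were amplified and labelled with the same kits before hybridisation to Affymetrix C. elegans arrays. Each group had 3 arrays. RNA type, pull-down and tissue cannot be told apart in this design, and fewer cells of a type cannot be told apart from less RNA per cell. The titles name the PVD and OLL samples as biological replicates and merely number the whole-animal samples. What the p-values measure is therefore the sample-to-sample spread, part of which may be technical.

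Values are the authors' deposited RMA values, read as log2. A gene was called at a limma adjusted p under 0.05 over all probe sets, and each difference is the PVD and OLL mean less that of the whole animal, with limma's standard error (SE, n = 3 arrays per group). Of 12 marker genes for PVD and OLL, 8 rose and 0 fell by limma (9 and 0 before adjustment at p under 0.05), with a median difference of 1.13. Of the same 12, 11 exceeded the no-target level (defined below) on all 3 PVD and OLL arrays against 2 in the whole animal. Over all genes 8.1% rose and 4.66% fell, and 66.6% and 49.9% exceeded the level. That level was lower on the PVD and OLL arrays (mean 2.38 against 3.16), which adds to the contrast. eat-4 and F49H12.4 exceeded it on all 3 PVD and OLL arrays and on 1 and 0 whole-animal arrays, yet differed by just 0.01 and 0.03. Replicate 3 of each group stood somewhat apart. Over the clec genes, which are not independent replicates, the whole-animal replicates 1 and 2 correlated at 0.948 and replicate 3 with them at 0.872 and 0.881. The PVD and OLL replicates 1 and 2 correlated at 0.986 and replicate 3 with them at 0.952 and 0.95. The yolk protein gene vit-2, the yolk protein gene vit-6 and the collagen gene col-19, which mark late larvae and adults, read 9.98, 9.88 and 7.96 on whole-animal replicate 3. On whole-animal replicates 1 and 2, vit-2 read 7.06 and 7.15, vit-6 7.15 and 6.67, and col-19 5.94 and 5.28. The part of these differences in the results below was not tested beyond leaving the arrays out.

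Of the 220 clec genes, 140 (63.6%) had a mean under 3 over all 6 arrays, and 55 (25%) lay below background on every array. Background was judged from 32 control probe sets against transcripts of bacteria and yeast, for which the samples hold no target. Their 95th percentile on an array is called its no-target level. On the PVD and OLL arrays 106, 123 and 107 of the 220 clec genes exceeded it, which is 48.2%, 55.9% and 48.6%. On the whole-animal arrays 97, 67 and 111 did, which is 44.1%, 30.5% and 50.5%. Whole-animal replicate 2 had the lowest count and replicate 3 lay within the PVD and OLL range, so the groups overlapped. The mean count was 112 ± 9.54 in PVD and OLL and 91.7 ± 22.5 in the whole animal (SD, n = 3 each), a difference that did not pass the test (exact permutation test, two-sided, p = 0.30, where the smallest possible p is 0.10). The same share over all genes was 71.5% to 75.8% on the PVD and OLL arrays and 53.4% to 65.1% on the whole-animal arrays. On each of the 6 arrays the clec share lay below that of all genes.

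**Figure D1:**
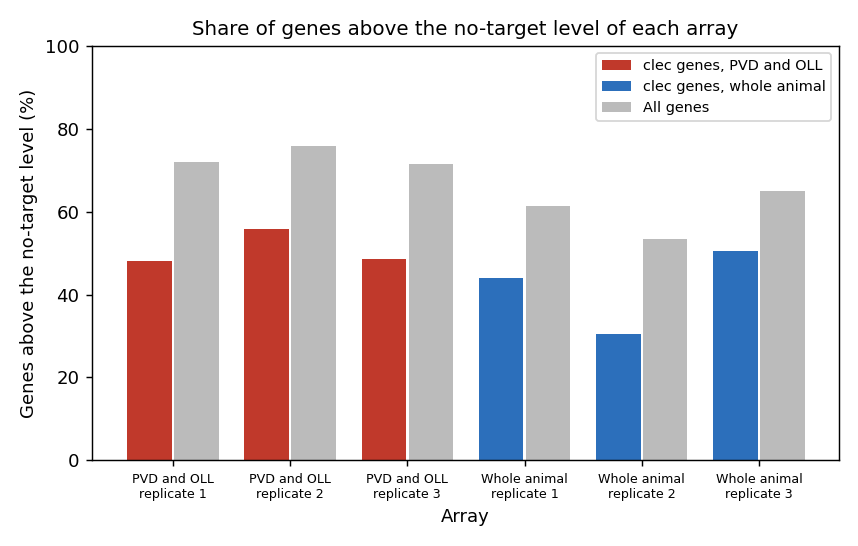
Percent of clec genes (coloured bars) and of all 17118 genes (grey bars) above the no-target level of each array, with 3 PVD and OLL arrays on the left and 3 whole-animal arrays on the right. Clec shares run from 48.2% to 55.9% in PVD and OLL and from 30.5% to 50.5% in the whole animal, below the share of all genes on each array.

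Counted by gene, 85 clec genes (38.6%) exceeded the level on all 3 PVD and OLL arrays, against 66.6% of all genes. In the whole animal 54 (24.5%) did, against 49.9% of all genes. On all 6 arrays 50 clec genes did, and on none of the 6 arrays 55 did. The level itself was 2.44, 2.28 and 2.44 for PVD and OLL replicates 1 to 3 and 3.09, 3.43 and 2.95 for whole-animal replicates 1 to 3, with no overlap. With 1 common level for all arrays, the highest of these, 47 clec genes exceeded it on all PVD and OLL arrays and 43 on all whole-animal arrays. By the level of each array, 7 clec genes were above the level on all 3 PVD and OLL arrays and on no whole-animal array (clec-24, clec-142, clec-184, clec-35, clec-221, clec-27 and clec-136), yet their differences lay between -0.35 and 0.51 and none was called. No clec gene was above the level on all 3 whole-animal arrays and on none of the PVD and OLL arrays.

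Of the 220 clec genes, 10 rose and 17 fell in the PVD and OLL samples, which is 4.55% and 7.73%. Over all genes 8.1% were called higher and 4.66% lower, and over all probe sets 9.31% and 4.28%. The median clec difference was -0.34, against -0.07 over all genes, and 168 of 220 differences were negative. Arrays of the groups did not overlap for 20 clec genes with PVD and OLL above and for 89 with PVD and OLL below, which is 9.09% and 40.5%. Over all genes these shares were 18.4% and 21.9%. The median of the clec values on each array was 2.41, 2.44 and 2.41 in PVD and OLL and 2.93, 2.91 and 2.96 in the whole animal. These medians did not overlap, at the smallest p that 3 against 3 arrays allow (exact permutation test, two-sided, p = 0.10).

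The clec median was lowest among genes with signals near background, where the no-target controls were shifted as well. All 32 controls were lower in the PVD and OLL samples, with a median difference of -0.50 and a range from -1.28 to -0.15, and 25 of the 32 did not overlap between groups. The low end of the range rests on a single control, with the next lowest at -0.89. Of the 140 clec genes with a mean under 3 over all arrays, 112 had a difference inside that range, 69 did not overlap with PVD and OLL below, and the median was -0.41. Over all genes with a mean under 3 the median was -0.28. The in-range and non-overlap counts are not given for those genes, so they are not read as particular to clec genes. The 52 clec genes with a mean between 3 and 5 had a median of -0.23, against 0.18 over all genes in that range. This gap to all genes was wider than the gap under 3. The 28 clec genes with a mean of 5 or more had a median of 0.34, against 0.19 over all such genes. Under 3, 0 clec genes rose and 10 fell (0% and 7.14%), against 0.486% and 3.58% of all genes in that range. Between 3 and 5, 4 rose and 5 fell (7.69% and 9.62%), against 11.7% and 4.65% of all genes. At 5 or more, 6 rose and 2 fell (21.4% and 7.14%), against 13.6% and 5.95% of all genes.

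**Figure D2:**
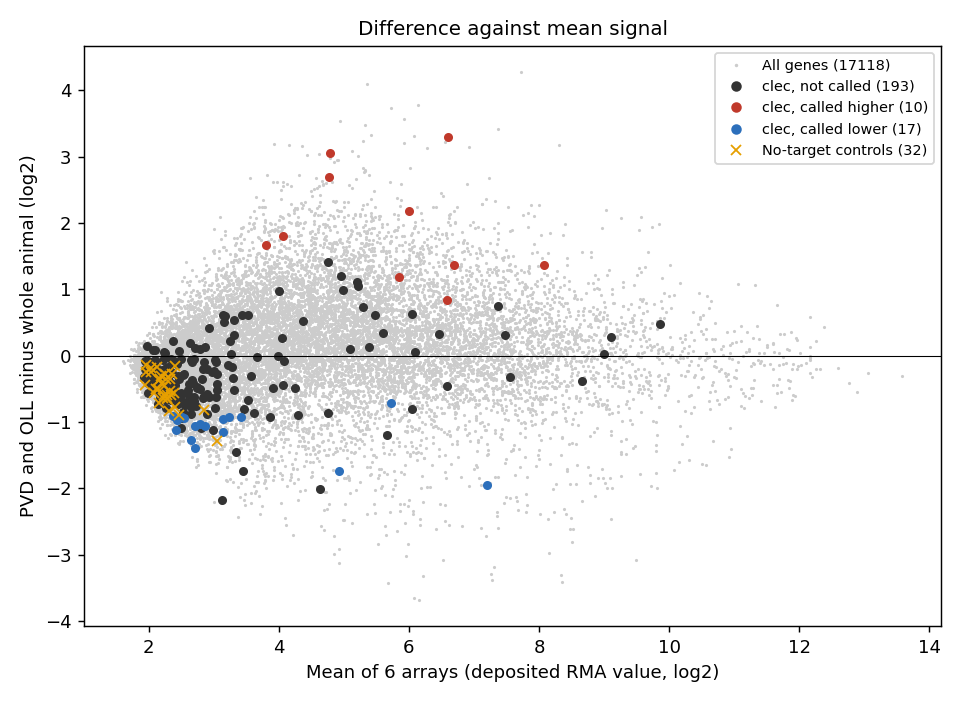
Difference between PVD and OLL and whole animal (vertical, log2) against the mean of 6 arrays (horizontal, log2) for all genes (grey), clec genes (black, red for called higher, blue for called lower) and no-target controls (orange crosses). The 10 clec genes called higher lie apart from the controls, while most called lower lie among or beside them.

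The direction of the family depended on the scale. Of the clec calls 37% were higher with the deposited values, 18.6% with arrays centred on their medians, 87.5% with arrays centred on the median of the no-target controls, and 100% with arrays centred on the bioB and bioC hybridisation controls. The same shares over all probe sets were 68.5%, 43.1%, 94.3% and 99.5%. The median difference of all probe sets was -0.03 on the deposited scale, and -0.23, 0.42 and 1.22 with those 3 centrings. Every rise and fall below is stated on the scale as deposited.

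The 10 clec genes that rose were clec-180, clec-64, clec-42, clec-45, clec-187, clec-4, clec-186, clec-17, clec-265 and clec-67. All 10 exceeded the no-target level on all 3 PVD and OLL arrays, and 5 of them on all 6 arrays. In 5 genes (clec-64, clec-42, clec-45, clec-187 and clec-186) the call held with each single array left out and under each other setting tried.

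clec-64 read 6.18, 7.13 and 5.62 in PVD and OLL, against 3.47, 3.23 and 3.06 in the whole animal. The PVD and OLL arrays were all high and the whole-animal arrays all near the level, with 2 of 3 above it. The difference was 3.06 ± 0.37 (adjusted p = 0.00537), an 8.32-fold ratio. clec-42, which has been linked to defence against Bacillus thuringiensis, read 6.49, 6.36 and 5.48 in PVD and OLL, against 3.02, 3.42 and 3.82 in the whole animal. The groups lay well apart, although only 1 whole-animal array exceeded its level. It rose by 2.69 ± 0.33 (adjusted p = 0.00553), 6.45-fold.

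clec-45 read 7.18, 7.48 and 6.65 in PVD and OLL, against 5.07, 5.21 and 4.46 in the whole animal. Replicate 3 was the lowest of both groups, and the groups did not overlap. The rise was 2.19 ± 0.30 (adjusted p = 0.00684), 4.55-fold. The neighbouring numbers clec-186 and clec-187 both rose. clec-187 read 5.05, 4.82 and 5.05 in PVD and OLL, against 3.26, 3.47 and 2.78 in the whole animal, a rise of 1.80 ± 0.23 (adjusted p = 0.00628). clec-186 read 7.48, 7.37 and 7.26 in PVD and OLL, against 6.01, 6.15 and 5.85 in the whole animal, a rise of 1.37 ± 0.19 (adjusted p = 0.00688). In clec-186 the replicates of each group lay close together and all 6 arrays were above the level.

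The largest difference of the family belonged to clec-180, and it was among the least even. It read 8.13, 8.36 and 8.26 in PVD and OLL, against 6.11, 5.98 and 2.77 in the whole animal. The PVD and OLL arrays lay close together, whereas whole-animal replicate 3 was far below the other two and below its no-target level. The difference was 3.29 ± 0.81 (adjusted p = 0.0377), 9.80-fold. Without whole-animal replicate 3 it was 2.20 and still called. It was not called without PVD and OLL replicate 1, 2 or 3 or without whole-animal replicate 2 (adjusted p up to 0.118), with differences from 3.24 to 3.81. Repeated quantile normalization, cyclic loess and the replicate block also lost the call (adjusted p = 0.0647, 0.0556 and 0.0533). The 5 genes whose values followed clec-180 most closely over the 6 arrays were ZK180.6, rol-8, prp-8, glt-1 and F58H1.2, with Pearson correlations between 0.9977 and 0.9984. This is a description over 6 arrays in 2 groups, in which 784 genes correlated with clec-180 above 0.9, so the pattern is not particular to these 5. All 5 also had their lowest value on whole-animal replicate 3. ZK180.6 read 7.58, 7.76 and 7.52 in PVD and OLL, against 6.26, 6.31 and 4.36 in the whole animal.

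The other 4 rises were less firm. clec-4, which is induced by Pseudomonas aeruginosa infection, read 5.15, 4.74 and 4.05 in PVD and OLL, against 2.72, 3.85 and 2.35 in the whole animal. Only whole-animal replicate 2 exceeded its level, and the arrays of the groups came close to each other. It rose by 1.67 ± 0.44 (adjusted p = 0.0446), and 4 of 6 fits with a single array removed no longer called it (up to 0.136). clec-17 read 8.99, 8.92 and 8.38 in PVD and OLL, against 7.39, 6.73 and 8.07 in the whole animal. It rose by 1.36 ± 0.36 (adjusted p = 0.0449), a call lost in 4 of 6 such fits (up to 0.146). clec-17 was read by a probe set ending in _s_at, which can match several transcripts. So were clec-87, clec-261, clec-266 and clec-161 among the genes called lower. Of the 220 clec genes, 32 were read by a probe set ending in _s_at or _x_at. clec-265 read 6.61, 6.56 and 6.16 in PVD and OLL, against 5.26, 5.50 and 5.01 in the whole animal, with a clear gap between the groups. It rose by 1.19 ± 0.23 (adjusted p = 0.0172), lost in 3 of 6 fits (up to 0.0795). clec-67, a target of the p38 kinase pathway of the intestine, read 6.85, 7.16 and 6.98 in PVD and OLL, against 5.93, 6.29 and 6.27 in the whole animal. It rose by 0.83 ± 0.20 (adjusted p = 0.0361), lost in 5 of 6 fits (up to 0.141).

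**Figure D3:**
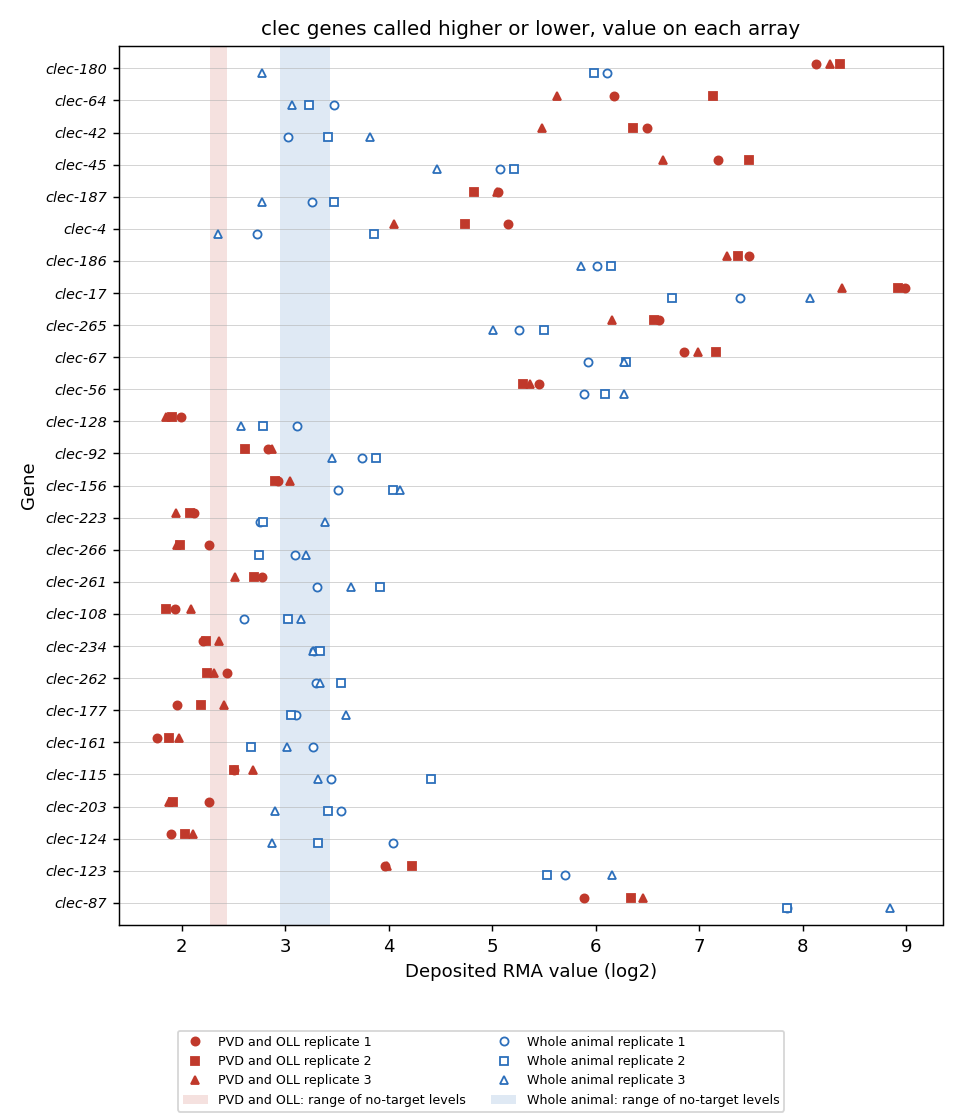
Deposited values (log2) on each array for the 27 clec genes called higher or lower, sorted by difference, with PVD and OLL filled, whole animal open, and shaded bands for the range of no-target levels in each group. The 10 genes called higher lie right of the bands in PVD and OLL, whereas most genes called lower lie inside or left of their band in PVD and OLL.

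Of the 17 clec genes that fell, 7 exceeded the level on all 6 arrays (clec-87, clec-123, clec-115, clec-261, clec-156, clec-92 and clec-56). clec-87 read 5.89, 6.34 and 6.45 in PVD and OLL, against 7.85, 7.85 and 8.84 in the whole animal. Whole-animal replicate 3 was the highest and the groups did not overlap. It fell by 1.95 on the log2 scale (SE 0.32, adjusted p = 0.0108), a 3.86-fold difference that was called with each single array left out. A second clec-87 probe set differed by -1.45 (adjusted p = 0.0941). clec-123 read 3.97, 4.23 and 3.99 in PVD and OLL, against 5.70, 5.53 and 6.16 in the whole animal. It fell by 1.74 (SE 0.23, adjusted p = 0.00632), a 3.34-fold difference that also held with each single array left out. When arrays were centred on bioB and bioC, neither fall was called, at -0.71 for clec-87 and -0.50 for clec-123.

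clec-56 read 5.45, 5.30 and 5.37 in PVD and OLL, against 5.88, 6.09 and 6.27 in the whole animal. The groups lay apart by less than 1 on the log2 scale. It fell by 0.71 (SE 0.19, adjusted p = 0.0495) and was called in none of the 6 fits with a single array removed (up to 0.170). clec-92, clec-115, clec-156 and clec-261 fell by 0.92, 1.15, 0.93 and 0.96 (adjusted p = 0.0266, 0.0467, 0.0345 and 0.0303). Their PVD and OLL means lay between 2.57 and 2.96 and their whole-animal means between 3.62 and 3.89. Each of these 4 lost its call in 4 or 5 of 6 such fits.

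The other 10 falls were read at or near background. In 9 of them (clec-124, clec-203, clec-161, clec-177, clec-234, clec-108, clec-266, clec-223 and clec-128) all 3 PVD and OLL arrays lay below their level, so the size is a bound. clec-124 read 1.89, 2.03 and 2.11 in PVD and OLL, against 4.04, 3.31 and 2.87 in the whole animal, where 1 array exceeded its level. Its signal was at least 2.03-fold lower in PVD and OLL (adjusted p = 0.0255). Bounds for the other 8 ran from 1.36-fold (clec-128) to 1.88-fold (clec-234). In clec-128, clec-223, clec-108 and clec-203 only 1 whole-animal array exceeded its level, and in the rest of the 8 only 2. The bounds set only the PVD and OLL values at their level, and the whole-animal level was itself higher (mean 3.16 against 2.38). They are therefore bounds on the ratio of signals and give no least difference in transcript. A second clec-161 probe set differed by -0.39 and was not called (adjusted p = 0.237). clec-262 exceeded its level on 1 PVD and OLL array and on all 3 whole-animal arrays and fell by 1.06 (adjusted p = 0.0131). Besides clec-124, every one of the 10 lay within the range of differences of the no-target controls. The low end of that range, -1.28, came from a single control, and the next lowest control stood at -0.89. These falls, from -1.27 (clec-203) to -0.91 (clec-128), were thus larger than the shift of every control but that one. With arrays centred on the median of those controls, an alternative chosen after seeing the data, 4 of the 17 falls and all 10 rises were still called.

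clec genes followed in infection or other studies were taken as a list of 20, all of them measured. Of these 5 rose (clec-180, clec-42, clec-4, clec-17 and clec-67) and 0 fell by limma (7 and 3 before adjustment at p under 0.05), with a median difference of 0.29. These are 25% and 0% of the list, beside 8.1% and 4.66% of all genes. On this list 15 genes (75%) exceeded the level on all 3 PVD and OLL arrays and 12 (60%) on all 3 whole-animal arrays, beside 66.6% and 49.9% of all genes. The list was drawn up with earlier results for clec-180 known, and clec-180 is among its 5 rises. Many of its genes had a mean of 5 or more, where 21.4% of clec genes and 13.6% of all genes rose. The 25% is therefore not read as an enrichment of the list. clec-60 and clec-61, transcripts raised by Gram-positive infection, did not pass the test in the fit to all arrays. clec-60 read 5.70, 5.86 and 4.87 in PVD and OLL, against 4.79, 3.80 and 4.88 in the whole animal (0.99 ± 0.38, adjusted p = 0.120). clec-61 read 6.03, 5.95 and 5.29 in PVD and OLL, against 4.14, 3.71 and 6.06 in the whole animal (1.12 ± 0.58, adjusted p = 0.219). Replicate 3 of the whole animal reached the PVD and OLL values in both genes. Without it clec-61 differed by 1.83 and was called (adjusted p = 0.0151). clec-60 was called with array weights (1.39, adjusted p = 0.0120) and in the fit without replicate 3 in either group (1.48, adjusted p = 0.0283).

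clec-41 and clec-86 were also called only in some fits without a replicate 3 or with other settings. clec-41, linked like clec-42 to defence against B. thuringiensis, read 8.08, 7.98 and 6.83 in PVD and OLL, against 6.69, 7.04 and 8.24 in the whole animal (0.31 ± 0.48, adjusted p = 0.678). With replicate 3 of both groups left out it differed by 1.17 and was called (adjusted p = 0.0145). Without whole-animal replicate 1 the difference of clec-41 was -0.0077 (adjusted p = 0.994). clec-86 read 5.85, 6.22 and 4.92 in PVD and OLL, against 4.97, 4.89 and 4.94 in the whole animal (0.73 ± 0.33, adjusted p = 0.170). Without PVD and OLL replicate 3 it differed by 1.11 and was called (adjusted p = 0.0252).

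clec-85, another target of the p38 pathway, went the other way without passing the test. It read 5.23, 5.11 and 4.86 in PVD and OLL, against 6.21, 5.59 and 6.98 in the whole animal (-1.19 ± 0.35, adjusted p = 0.0601). The groups did not overlap, and clec-85 passed the test after repeated quantile normalization (adjusted p = 0.0274) and with arrays centred on their medians (0.029). Centring on bioB and bioC instead gave clec-85 a difference of 0.05 (adjusted p = 0.932). Of the transcripts raised by Staphylococcus aureus, clec-52 read 5.52, 5.94 and 5.48 in PVD and OLL, against 6.05, 6.04 and 7.27 in the whole animal (-0.81 ± 0.36, adjusted p = 0.165). clec-70, clec-71 and clec-82 had means under 3 in both groups. clec-39 and clec-49 have been tied to Serratia marcescens. clec-39 averaged 2.36 in PVD and OLL and 3.00 in the whole animal (adjusted p = 0.123), near background. It was called lower with array weights (-0.83, adjusted p = 0.0199) and in the fit without replicate 3 in either group (-0.90, adjusted p = 0.0488), and its difference was 0.60 with centring on bioB and bioC (adjusted p = 0.276). clec-49 averaged 5.74 in PVD and OLL and 4.69 in the whole animal (adjusted p = 0.125). clec-38, a member studied in axon outgrowth, read 2.95, 3.29 and 2.31 in PVD and OLL, against 3.57, 2.74 and 2.97 in the whole animal. Its arrays overlapped around background and it was not called (-0.24 ± 0.32, adjusted p = 0.629). clec-65, clec-66 and clec-83 were well above background in both groups and differed by 0.28, 0.05 and -0.45 without passing the test.

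**Figure D4:**
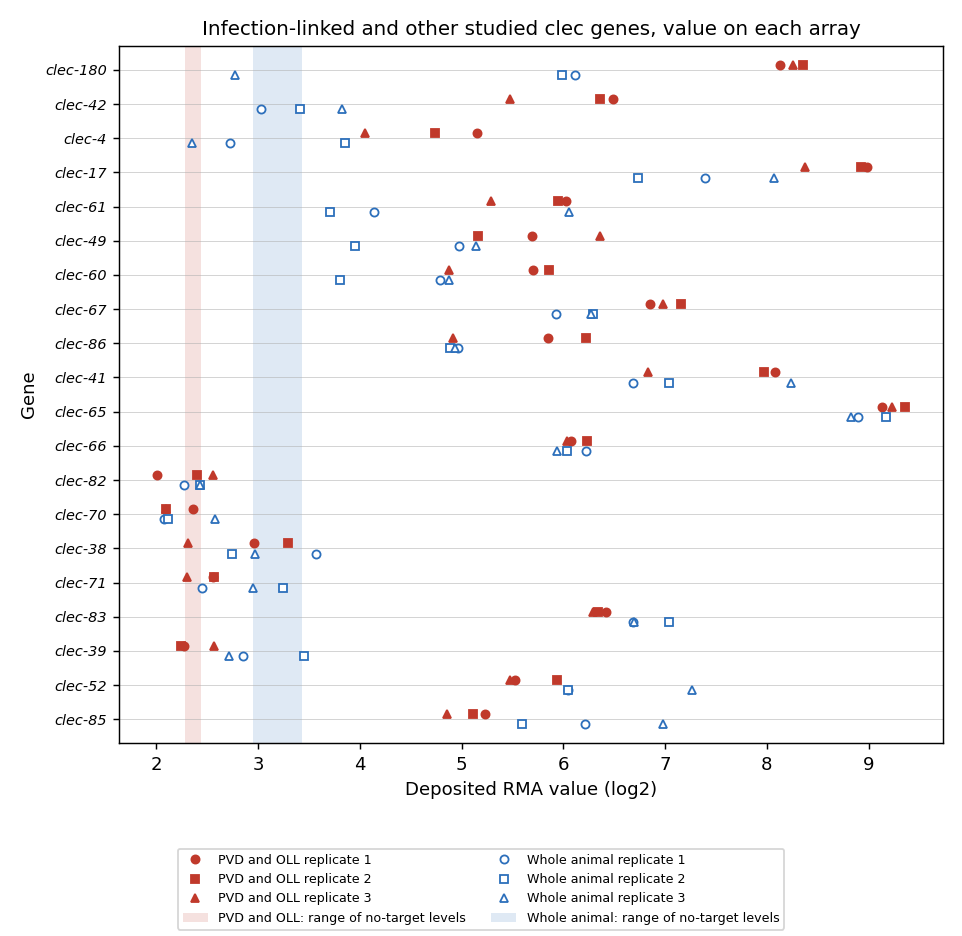
Deposited values (log2) on each array for 20 infection-linked and other studied clec genes, sorted by difference, with PVD and OLL filled, whole animal open, and shaded bands for the range of no-target levels in each group. In clec-61 and clec-41 the whole-animal replicate 3 triangle lies right of the other whole-animal symbols, and in clec-180 it lies far left of them.

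Several clec genes with strong signals in both groups did not pass the test. clec-63 read 10.17, 10.19 and 9.92 in PVD and OLL, against 9.74, 9.68 and 9.41 in the whole animal (0.48 ± 0.20, adjusted p = 0.138). clec-50 averaged 9.01 ± 0.27 in PVD and OLL and 8.98 ± 0.06 in the whole animal (SD, n = 3 each), a difference of 0.02 (adjusted p = 0.95). clec-150 averaged 8.48 ± 0.30 in PVD and OLL and 8.85 ± 0.19 in the whole animal (SD, n = 3 each), a difference of -0.38 (adjusted p = 0.286). For clec-65 the 2 probe sets differed by 0.28 and -0.20, neither of them called. These signals are those of single probe sets and give no order of transcript amounts between genes.

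Other clec genes varied strongly among the replicates of a group. An SD above 1 was found for 10 clec genes in the whole animal and for 3 in PVD and OLL. The share over all genes is not given, so this spread is not read as particular to clec genes. clec-190, chosen here for its spread, read 2.01, 1.86 and 2.27 in PVD and OLL, against 3.23, 3.09 and 6.32 in the whole animal (-2.17, adjusted p = 0.106). Its high value came from whole-animal replicate 3 alone. clec-174 read 6.52, 6.30 and 2.61 in PVD and OLL, against 5.13, 4.82 and 5.19 in the whole animal (0.10, adjusted p = 0.952). Here PVD and OLL replicate 3 was the low array. clec-73 read 4.19, 4.26 and 4.52 in PVD and OLL, against 4.13, 4.79 and 6.66 in the whole animal (-0.87, adjusted p = 0.328).

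Many clec genes lie next to each other in the genome. In the RefSeq gene order, used for neighbours only, there were 15 runs of at least 3 adjacent protein-coding clec genes, with 73 genes of which 63 were measured. Within these runs 3 genes rose and 2 fell (4.76% and 3.17%), beside 4.55% and 7.73% of all measured clec genes and 8.1% and 4.66% of all genes. The run from clec-62 to clec-66 was measured in full and its members did not move together. clec-64 rose by 3.06 while clec-62, clec-63, clec-65 and clec-66 differed by -0.32, 0.48, 0.28 and 0.05, none of them called. clec-42 (2.69) likewise lay beside clec-245 (-0.58) and clec-246 (-0.62), which were not called. clec-67 (0.83) was the only called member of its run, beside clec-70 (-0.07), clec-71 (-0.41) and clec-174 (0.10). In the run from clec-93 to clec-99 all 7 differences lay between -0.79 and -0.38, none was called, and no mean exceeded 3.42.

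**Figure D5:**
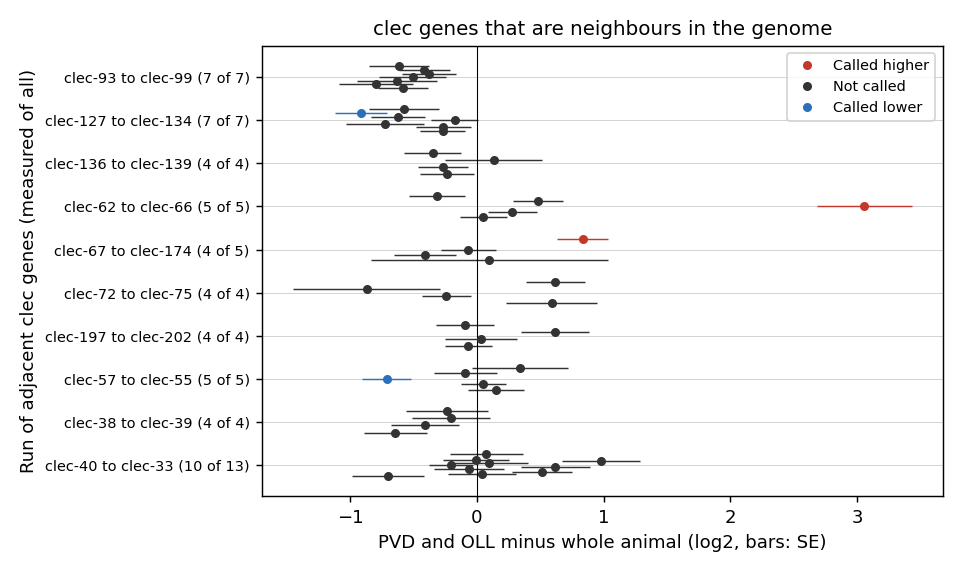
Difference between PVD and OLL and whole animal (log2, bars are SE) for clec genes in runs of adjacent genes with at least 4 measured members, red for called higher, blue for called lower and black for not called. In the run from clec-62 to clec-66, clec-64 lies at 3.06 and the other members between -0.32 and 0.48.

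Other lists of innate immunity genes are given beside the clec genes. For comparison, 8.1% of all genes were called higher and 4.66% lower, with a median difference of -0.07. Of 16 lysozyme genes, which encode enzymes that break bacterial cell walls, 1 rose and 1 fell, with a median of 0.07. ilys-4 rose by 1.09 (adjusted p = 0.0223) and ilys-6 fell by 1.67 (adjusted p = 0.00722). Of 15 saposin-like genes, whose family includes pore-forming peptides, 2 rose (spp-14 by 1.46 and spp-18 by 1.04) and 0 fell (6 and 2 before adjustment at p under 0.05), with a median of 0.38. Of 12 galectin genes, which encode lectins of another fold, 2 rose (lec-2 by 1.33 and lec-10 by 0.93) and 0 fell (2 and 0 before adjustment at p under 0.05), with a median of 0.22. Of 22 caenacin and other antimicrobial peptide genes, many of them epidermal, 0 rose and 6 fell (1 and 10 before adjustment at p under 0.05), with a median of -0.47. nlp-25 fell by 2.11 (adjusted p = 0.00532) and cnc-4 by 1.88. cnc-1 lay below the level on all PVD and OLL arrays, and its signal was at least 1.77-fold lower there. nlp-32, also among the 6, lay below the level on all 6 arrays, so no fold is given for it. Of 11 other infection-response genes limma called 0 in either direction, likewise before adjustment at p under 0.05, with a median of -0.15.

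Genes of immune signalling had 7 rises and 1 fall among 18, with a median of 1.02. Over all genes 8.1% rose and 4.66% fell. zip-2, a bZIP factor of the Pseudomonas response, rose by 1.93 (adjusted p = 0.0137). hlh-30, the worm TFEB, rose by 1.82 (adjusted p = 0.0176), and sma-3, a Smad of the DBL-1 pathway, by 1.71 (adjusted p = 0.00518). The p38 gene pmk-1 rose by 1.30 and its targets clec-67 and clec-85 differed by 0.83 and -1.19. The signal of trf-1, a TRAF adaptor gene, was at least 1.87-fold lower in PVD and OLL, where it lay below the level on all 3 arrays. Several of these genes act in many tissues, including neurons.

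Since many clec genes are known from the intestine, intestinal markers were read beside them. Of 14 measured markers 2 rose and 2 fell, with a median of 0.36. The shares over all genes were 8.1% and 4.66%, and 13.6% and 5.95% over genes with a mean of 5 or more. All 14 exceeded the level on all 3 PVD and OLL arrays and 13 on all whole-animal arrays, so none was without signal in the PVD and OLL samples. Their summed signal on a linear scale was 6040 to 6229 in PVD and OLL and 4030 to 5520 in the whole animal. cpr-1, a cathepsin B-like protease gene, read 10.73, 10.64 and 10.48 in PVD and OLL, against 8.34, 8.68 and 8.57 in the whole animal (2.09 ± 0.19, adjusted p = 0.00402). vit-2 and vit-6 fell by 3.09 and 3.66 (adjusted p = 0.0421 and 0.0345). Of 8 epidermal markers 4 rose and 2 fell, and of 4 sperm markers 0 rose and 2 fell (0 and 3 before adjustment at p under 0.05). The part of RNA from intestine or other cells in the clec values was not tested, so a rise of a clec gene does not place its transcript in PVD or OLL.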

How the data were processed

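The data are 6 one-colour Affymetrix arrays, 3 per group. The authors deposited a log2-scale table with a row per probe set and a column per array, made with RMA, per the submitters' processing notes. The base of the log is read from the range (1.21 to 13.9), while neither the RMA version nor the genome build is given in the sources used here. No sample column was left unused. Of 22625 probe sets, 77 controls were left out and 22548 tested. Names came from the array annotation, updated through RefSeq (WBcel235, names and neighbours only); 20766 probe sets had 1 gene name, 887 several and 895 none listed.

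Differences were fitted with limma 3.58.1 in R 4.3.3 (lmFit, eBayes, Benjamini-Hochberg over all tested probe sets, two-sided) on all 6 arrays without covariates, and tested on simulated data. The number of arrays limits the precision. Folds are bounds on the signal ratio where all arrays of the dimmer group lay below the no-target level. The dimmer group was then set at its level and the brighter group taken as read. Named clec genes were all called ones, the 5 with the highest mean in each group and a list of 20 studied ones (45 in all), others being named for the reason given beside them. Each companion list gave at most 3 called members of its commoner direction and 1 of the rarer, by size, and the text names some of these. vit-2, vit-6, col-19, pmk-1 and the members of gene runs were named after their values were seen. Members and lists were chosen with earlier results of these data known. Same-numbered replicates did not deviate together (correlations -0.05, -0.07 and -0.10), so no pairing was used. The alternatives were other scalings, filters, probe set choices, variance models, a replicate block and single arrays left out. No sequences were used here.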

Additional observations from a re-analysis of the deposited data

How the results depend on the processing

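Counts of called clec genes (10 higher, 17 lower), of all probe sets (2099 and 964) and the median clec difference (-0.34) moved with the scale. Repeated quantile normalization gave 5 clec genes higher (1192 probe sets higher) and a median of -0.21, and cyclic loess 5 (1195) and -0.19. Centring on array medians gave 35 clec genes lower (1952 probe sets lower) and -0.55, and centring on proteasome genes a median of -0.26. Centring on the bioB and bioC controls gave 71 clec genes higher and 0 lower (12752 and 66 probe sets) and turned the median to 0.90. It also turned the called falls of clec-56 (0.53), clec-128 (0.33), clec-92 (0.32), clec-156 (0.31), clec-223 (0.31), clec-266 (0.29), clec-261 (0.28), clec-108 (0.27), clec-234 (0.21), clec-262 (0.18), clec-177 (0.18), clec-161 (0.12) and clec-115 (0.086), none then called by limma, and called clec-70 (1.17) and clec-82 (1.18) higher. Centring on the no-target controls, added after seeing the data, gave 28 higher and 4 lower (5647 and 339 probe sets) and a median of 0.10. Such shifts follow from the centring itself. Without the dimmest 25% of probe sets the median was -0.33. Leaving out _s_at and _x_at probe sets, 11 clec genes were lower (1186 and 600 probe sets), in part because fewer were tested. Array weights gave 20 higher and 50 lower (4035 and 2767). The replicate block, whose numbers are only shared labels here, gave 7 higher and 6 lower (1224 and 405). With 1 array left out, clec counts ranged from 5 to 11 higher and 2 to 25 lower, probe sets from 577 to 2017 and 208 to 1222, and the median from -0.35 to -0.30. The lowest counts came without PVD and OLL replicate 2, with 5 and 2 clec genes, and the highest without whole-animal replicate 3. Leaving out replicate 3 of both groups, added after seeing the data, gave 18 higher and 29 lower (3300 and 1842) and a median of -0.30. The cause was not tested for the array weights and left-out arrays. With the highest control as the level, 29 clec genes exceeded it in the whole animal. With the median control, 146 did in PVD and OLL and 128 in the whole animal, and with 1 common level 47 did in PVD and OLL. With 1 array left out these counts ranged from 89 to 99 in PVD and OLL and from 58 to 77 in the whole animal. Over the named clec genes and all settings, 661 of the values kept direction and side of the threshold. The rest lost a call, gained a call or changed direction, and a lost call was the most frequent of these changes. The 661 include genes that were not called in the main fit and stayed so. The count is therefore not read as a measure of how firm the calls are. Signals near the no-target level limit the falls.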
